A study of Mus musculus with 4 samples.

Results

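Messenger RNA of 10 genes of the lytic cell death pathways was measured in J558 allografts from mice treated with vehicle or TAK-931. The 10 genes were Nlrp3, Pycard, Casp1, Casp4 and Gsdmd of pyroptosis and Zbp1, Ripk1, Casp8, Ripk3 and Mlkl of necroptosis and its control. They were chosen by name, and all 10 were found among the 24421 gene rows of each table. J558 is a mouse plasmacytoma line, a tumor of antibody-secreting cells, and it was injected under the skin of the right flank of female BALB/c mice. The control mice received 0.5% methylcellulose by mouth, and the treated mice received TAK-931, an inhibitor of the replication kinase CDC7, in an oral daily dose of 60 mg/kg over 6 days. Each group had 2 libraries, called Vehicle-1 and Vehicle-2 in the control group and TAK-931-1 and TAK-931-2 in the treated group, all from day 6 and described as independent samples, and the labels give no age. RNA came from the whole tumor, so each library holds transcripts of J558 cells and of host cells, and a change in the number of cells of a type cannot be told apart from a change in RNA per cell. Nothing in the labels says whether the 2 libraries of a group came from separate mice, so p-values measure only the spread between these samples.

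Pyroptosis and necroptosis both end in rupture of the plasma membrane and release of cell contents. In pyroptosis, a sensor such as NLRP3 gathers the adaptor ASC, encoded by Pycard, into an inflammasome that activates caspase-1. Caspase-1, or caspase-11 encoded by Casp4 in the mouse, cuts gasdermin D, whose freed part forms pores. In necroptosis, RIPK3 is engaged by RIPK1 or by the Z-nucleic acid sensor ZBP1 and phosphorylates MLKL, which then damages the membrane. Caspase-8 holds this second route in check by cutting the RIP kinases. Macrophages are well known for inflammasome activity, and several of these genes are known targets of interferon.

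Library depth was between 16487902 and 19589339 counts. The level of a gene is given as CPM, its count divided by the TMM-scaled total of the library so that libraries can be compared, and a count of 3, taken as the floor, was worth between 0.153 and 0.182 CPM. TAK-931-1 stood apart from the other 3 libraries. The summed level of 12 macrophage markers was 495 and 401 CPM in the vehicle pair, and it reached 6820 CPM in TAK-931-1 against 1320 CPM in TAK-931-2, and that of 10 T cell markers was 71.0, 76.7, 1810 and 172 CPM in the same order. The 8 markers of plasma cells and J558 moved the other way in TAK-931-1, at 9713, 10281, 4793 and 13637 CPM, so transcripts of the tumor lineage were abundant in every library. The biological coefficient of variation was 0.132 for the control pair but 0.579 for the treated pair. In edgeR's quasi-likelihood test, 0 of 13669 genes tested had an adjusted p under 0.05, while 2475 had an unadjusted p under 0.05 and DESeq2 called 1411 at an adjusted p under 0.05. Because of this spread, values of the 10 genes are given for each TAK-931 library and with TAK-931-1 left out.

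The 10 genes lie on 9 chromosomes of the mm10 build, and the exons of none overlap those of another gene in the tables. Casp1 (chr9:5298517-5307281, plus strand, 1513 exonic bases) and Casp4 (chr9:5308849-5336791, plus strand, 1443 exonic bases) are neighbors. The others are Nlrp3 at chr11:59542686-59566956 (plus), Pycard at chr7:127991373-127993867 (minus), Gsdmd at chr15:75862339-75867404 (plus), Zbp1 at chr2:173206612-173218922 (minus), Ripk1 at chr13:34002874-34035170 (plus), Casp8 at chr1:58795374-58847503 (plus), Ripk3 at chr14:55784995-55788857 (minus) and Mlkl at chr8:111311800-111337903 (minus). Counts cover all exons of a gene, untranslated parts included, and do not separate isoforms.

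Promoter sequence is shown for the pair of genes with the highest fold changes, Nlrp3 and Casp4, and for Ripk1, whose groups overlapped and whose window held the only match described here. Each is the 250 bases before the start site in RefSeq (GRCm38.p6), 5′ to 3′ on the plus strand, at chr11:59542436-59542685, chr9:5308599-5308848 and chr13:34002624-34002873. Capitals mark matches to the gamma-activated site TTCNNNGAA.
Nlrp3: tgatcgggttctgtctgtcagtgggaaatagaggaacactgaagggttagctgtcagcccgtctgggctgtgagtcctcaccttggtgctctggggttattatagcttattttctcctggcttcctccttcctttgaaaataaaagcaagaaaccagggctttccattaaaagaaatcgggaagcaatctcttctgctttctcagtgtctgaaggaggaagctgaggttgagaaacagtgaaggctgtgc
Casp4: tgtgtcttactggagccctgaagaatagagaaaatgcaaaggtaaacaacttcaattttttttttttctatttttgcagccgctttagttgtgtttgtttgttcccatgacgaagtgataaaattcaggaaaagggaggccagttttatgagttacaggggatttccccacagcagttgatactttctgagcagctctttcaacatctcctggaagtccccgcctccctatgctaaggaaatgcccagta
Ripk1: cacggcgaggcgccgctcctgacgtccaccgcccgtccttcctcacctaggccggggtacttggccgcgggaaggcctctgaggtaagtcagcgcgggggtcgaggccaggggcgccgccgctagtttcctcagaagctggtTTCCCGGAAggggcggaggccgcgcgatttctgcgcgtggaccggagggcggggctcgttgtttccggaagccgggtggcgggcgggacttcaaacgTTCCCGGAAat
RefSeq windows were present for 8 of the 10 genes, 11 windows in all, and Zbp1 and Gsdmd had none. Both strands were searched for TTCNNNGAA and for the core of the interferon-stimulated response element, GAAA repeated after any 2 bases. The gamma-activated site was found in 1 of the 11 windows, at bases 108 to 100 and 11 to 3 before the Ripk1 start, and 7.02% of 32851 mouse windows of this length hold it. That core was found in 0 of the 11 windows, and 2.98% of all windows hold it. Nlrp3 and Casp4, the genes with the highest folds, thus had neither run of letters in these windows, which says nothing of sites elsewhere.

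Of the 10 genes, 9 had a positive fitted log2 fold change for TAK-931 against vehicle, with a median of 1.41 against 0.02 over all genes tested. All 10 passed the filter on low counts, and each had at least 14 counts in every library. At an unadjusted p under 0.05, 4 of the 10 were higher in TAK-931 (Nlrp3, Casp4, Gsdmd and Casp1), a rule that 11.6% of all genes tested met, and 0 were lower, as 6.55% of all genes were. None passed at an adjusted p under 0.05, with values from 0.275 upward, while DESeq2 called the same 4 higher at an adjusted p under 0.05, beside 9.21% of all genes. The groups did not overlap, with both TAK-931 libraries above both vehicle libraries, for 7 of the 10, which 29.9% of all genes did. The reverse held for 0 of the 10 and for 32.8% of all genes. In TAK-931-1, 9 of the 10 were above both vehicle libraries (46% of all genes), and in TAK-931-2 it was 7 (42.3% of all genes). The median difference in log2 CPM from the vehicle mean was 1.96 in TAK-931-1 but 0.59 in TAK-931-2, and all 10 genes were higher in TAK-931-1 than in TAK-931-2, as 50.3% of all genes were. The 4 genes that met the unadjusted rule in this fit belong to the pyroptosis arm, while DESeq2 added Ripk3, Mlkl and Zbp1 of the necroptosis arm at an unadjusted p under 0.05.

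**Figure D1:**
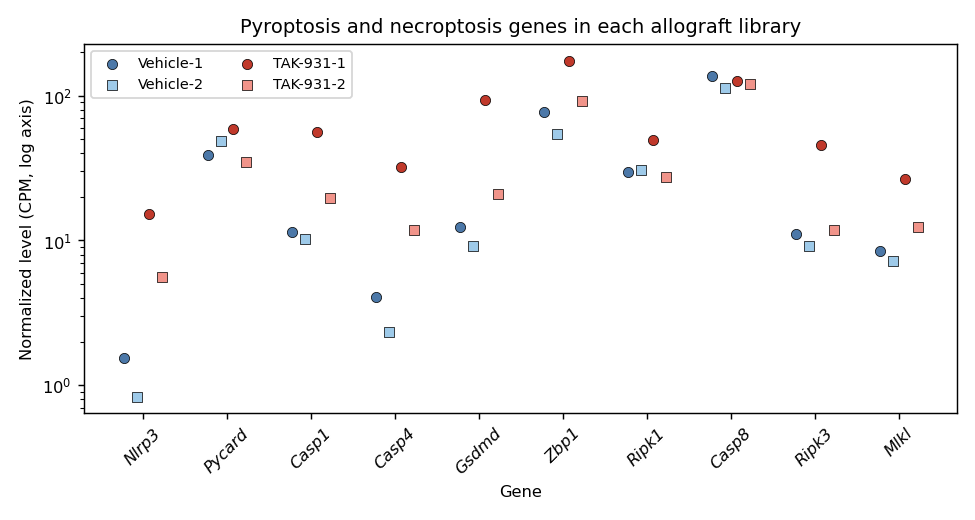
Level of the 10 genes in each of the 4 libraries, in TMM-scaled CPM on a log axis; each point is 1 library, blue for vehicle and red for TAK-931. Both red points sit above both blue points for 7 genes, and the groups overlap for Pycard, Ripk1 and Casp8.

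Nlrp3, the sensor of the canonical inflammasome, had the highest fold change of the 10 and the lowest level. It had 26 and 14 counts in the vehicle pair, 288 counts in TAK-931-1 but 96 in TAK-931-2, or 1.54, 0.839, 15.1 and 5.60 CPM. Both TAK-931 libraries were above both vehicle libraries, 12.7-fold and 4.70-fold over the vehicle mean. At these low counts the 95% Poisson interval was 7.65 to 23.5 counts in Vehicle-2 and 77.8 to 117 in TAK-931-2, which covers counting error only and is too narrow because both mates of a read pair seem to be counted. The fitted log2 fold change was 3.12 (SE 0.78, adjusted p = 0.275), and DESeq2 gave an adjusted p of 0.00278.

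Pycard, which encodes the adaptor that joins sensor and caspase, did not follow its sensor. Its level was 38.7 and 48.4 CPM in vehicle, 58.9 CPM in TAK-931-1 but 35.0 CPM in TAK-931-2. One TAK-931 library was above both vehicle libraries and the other below both, and the means were 43.6 ± 6.86 and 46.9 ± 16.9 CPM (SD, n = 2 each). The log2 fold change was 0.11 (SE 0.34, adjusted p = 0.860), and it was -0.32 without TAK-931-1 and 0.41 without TAK-931-2.

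The inflammatory caspases were higher in both TAK-931 libraries. Casp1, whose product matures interleukin-1 beta and interleukin-18, was at 11.4 and 10.2 CPM in vehicle and at 55.9 and 19.8 CPM in TAK-931, a fold of 5.18 and 1.83. Casp4, whose product senses lipopolysaccharide inside the cell, was at 4.09 and 2.34 CPM in vehicle and at 31.9 and 11.9 CPM in TAK-931, a fold of 9.94 and 3.70. The groups were apart for both, and the fold of Casp4 was above that of its neighbor Casp1 in each TAK-931 library. The log2 fold change was 1.81 (SE 0.58) for Casp1 and 2.77 (SE 0.69) for Casp4, both with an adjusted p of 0.275. DESeq2 gave adjusted p-values of 0.0309 and 0.00185.

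Gsdmd, the pore former downstream of both caspases, showed the widest split between the TAK-931 libraries among the genes whose groups did not overlap. It stood at 12.3 and 9.11 CPM in vehicle, at 93.7 CPM in TAK-931-1 but at 21.0 CPM in TAK-931-2, or 8.74-fold and 1.96-fold the vehicle mean. The spread of the TAK-931 pair was therefore nearly as large as its mean, at 57.4 ± 51.4 CPM (SD, n = 2). The log2 fold change was 2.42 (SE 0.79, adjusted p = 0.275), and DESeq2 gave an adjusted p of 0.0127.

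Each of these 4 genes was also higher when TAK-931-1 was left out, although by less. In edgeR's test of TAK-931-2 against the vehicle pair, the log2 fold change was 2.22 for Nlrp3 (adjusted p = 0.02), 1.88 for Casp4 (adjusted p = 0.00982), 0.97 for Gsdmd (adjusted p = 0.0197) and 0.87 for Casp1 (adjusted p = 0.0197). The same test called 12.6% of all genes higher and 16.1% lower, and it assumes that the lone library varies as the vehicle pair does. The macrophage markers were 2.95-fold and the interferon-stimulated markers 3.06-fold above the vehicle mean in TAK-931-2, against 15.2-fold and 7.56-fold in TAK-931-1. Their part in the values of these genes was not tested.

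**Figure D2:**
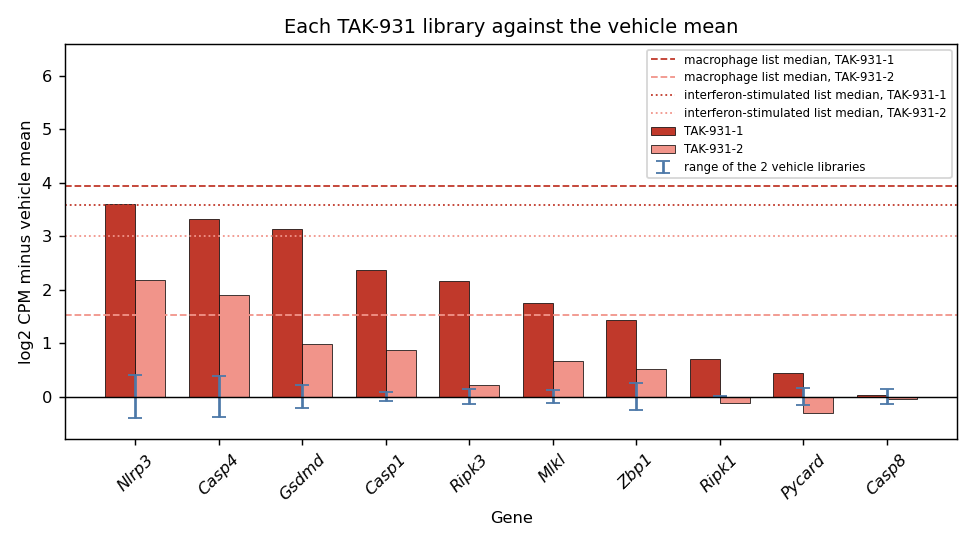
Difference in log2 CPM between each TAK-931 library and the vehicle mean for the 10 genes, with blue bars for the range of the vehicle libraries and lines for the median gene of the macrophage and interferon-stimulated marker lists. The genes run from Nlrp3, at 3.60 for TAK-931-1 but 2.18 for TAK-931-2, down to Casp8 near 0, and TAK-931-1 is the higher bar throughout.

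In the necroptosis arm, none of the 5 genes met the unadjusted rule in the fit of all 4 libraries described above. Mlkl and Zbp1 did in some alternative edgeR fits, and Ripk1 and Ripk3 did in the fit without TAK-931-2. Zbp1, the Z-nucleic acid sensor and itself an interferon-stimulated gene, was at 76.5 and 54.2 CPM in vehicle, 174 CPM in TAK-931-1 but 91.7 CPM in TAK-931-2. The groups did not overlap, but the lower TAK-931 library was 1.40-fold the vehicle mean and near Vehicle-1. The log2 fold change was 1.02 (SE 0.41, adjusted p = 0.280), and 0.49 without TAK-931-1 (adjusted p = 0.152).

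The RIP kinases differed from each other. Ripk3, the kinase that activates MLKL, was at 11.1 and 9.23 CPM in vehicle, 45.9 CPM in TAK-931-1 but 11.8 CPM in TAK-931-2. Its value in TAK-931-2 was only 1.16-fold the vehicle mean, so its log2 fold change of 1.5 (SE 0.72, adjusted p = 0.313) rests on TAK-931-1, and it was 0.21 without that library (adjusted p = 0.606). Ripk1, which both supports survival signaling and starts necroptosis, was at 29.8 and 30.6 CPM in vehicle, 49.5 CPM in TAK-931-1 but 27.6 CPM in TAK-931-2. The groups overlapped, with 1 TAK-931 library on each side of the vehicle pair, and the log2 fold change was 0.35 (SE 0.36, adjusted p = 0.566), turning to -0.13 without TAK-931-1.

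Mlkl, the executor that breaks the membrane, was at 8.48 and 7.19 CPM in vehicle and at 26.6 and 12.5 CPM in TAK-931, a fold of 3.40 and 1.59. The groups were apart, with a log2 fold change of 1.32 (SE 0.50, adjusted p = 0.277), and without TAK-931-1 it was 0.67 (adjusted p = 0.110). Casp8, the brake on this arm, lay within the vehicle range in both TAK-931 libraries. Its level was 136 and 113 CPM in vehicle and 126 and 120 CPM in TAK-931, with means of 125 ± 16.7 and 123 ± 3.87 CPM (SD, n = 2 each) and a log2 fold change of -0.02 (SE 0.22, adjusted p = 0.971; -0.05 without TAK-931-1), whose sign turned in 5 alternative settings.

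Without TAK-931-2, the differences were larger in both arms. In edgeR's test of TAK-931-1 against the vehicle pair, 8 of the 10 genes were higher at an adjusted p under 0.05, all except Pycard and Casp8, in a fit that called 28.2% of all genes higher and 29.8% lower. Their log2 fold changes there ran from 0.69 for Ripk1 (adjusted p = 0.00677) to 3.64 for Nlrp3 (adjusted p = 0.00199). Ripk3 was at 2.15 (adjusted p = 0.00071) and Gsdmd at 3.11 (adjusted p = 0.000291). This is the library in which host markers were far above the others, with 24.5-fold the T cell and 15.2-fold the macrophage markers of the vehicle mean, and their part in these values was not tested.

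Divided by exonic length, the levels of the 10 genes can be set in order. In vehicle, Casp8 was highest at 43.0 ± 5.78 CPM per kb, followed by Zbp1 at 30.2 ± 7.29 and Pycard at 20.4 ± 3.21 (SD, n = 2). Casp1, Ripk1, Gsdmd, Ripk3 and Mlkl formed a middle group between 7.13 and 4.60 CPM per kb in which each neighbor overlapped the next. Casp4 at 2.23 ± 0.86 and Nlrp3 at 0.30 ± 0.12 CPM per kb were apart from the rest, so the pyroptosis arm was led in vehicle tumors by its adaptor and was lowest in its sensor. In TAK-931, the order below the first gene differed between the libraries. Zbp1 was first in both, at 80.3 CPM per kb in TAK-931-1 but 42.4 in TAK-931-2. Gsdmd came next in TAK-931-1 at 52.8 CPM per kb, above Casp8 at 43.4, whereas in TAK-931-2 it stood at 11.8, below Casp8 (41.6), Pycard (16.4) and Casp1 (13.1). Nlrp3 was last of the 10 in all 4 libraries.

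The 10 genes were next set against the host markers of the same library. For each gene, the mean log2 CPM of the 12 macrophage markers was subtracted from its own log2 CPM, as a description with no test. That marker mean exceeded its vehicle mean by 3.92 in TAK-931-1 but by only 1.41 in TAK-931-2. Relative to it, all 10 genes were below their vehicle mean in TAK-931-1 and 8 of 10 in TAK-931-2, with medians of -1.96 and -0.82. The exceptions were Nlrp3, at -0.31 in TAK-931-1 but 0.78 in TAK-931-2, and Casp4, at -0.60 and 0.49. Gsdmd (-0.79 and -0.43) and Casp1 (-1.55 and -0.54) came next, and Casp8 was lowest in TAK-931-1 at -3.90. Relative to the 10 T cell markers, all 10 genes were below their vehicle mean in both TAK-931 libraries, with medians of -3.91 and -1.63, while the T cell marker mean itself differed by 1.05 between the vehicle libraries.

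**Figure D3:**
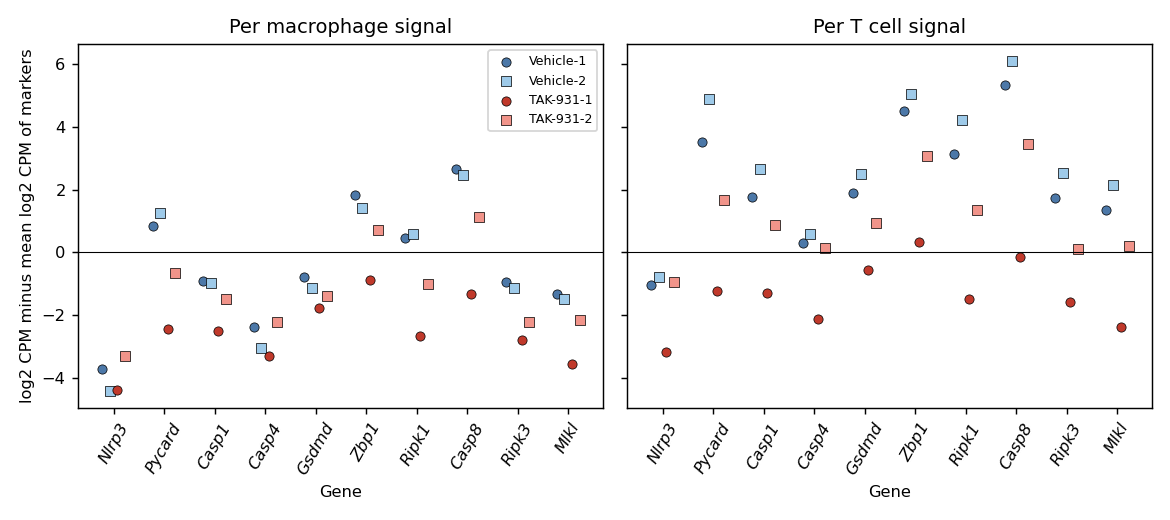
Log2 CPM of each gene less the mean log2 CPM of 12 macrophage markers (left) or 10 T cell markers (right) in the same library; each point is 1 library. The red TAK-931 points lie below the blue vehicle points for 8 of 10 genes on the left and 9 of 10 on the right.

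Among the 10 genes, the profiles most alike were those of Pycard and Ripk1, Nlrp3 and Casp4, and Zbp1 and Mlkl. Likeness was the Euclidean distance between log2 CPM profiles over the 4 libraries, each centered on the vehicle mean, and the distances were 0.38, 0.40 and 0.41. In each case other genes were nearer. The gene nearest to Nlrp3 was Trim30a (distance 0.18), and 24 genes in all were nearer to it than Casp4 was. The gene nearest to Casp4 was Parp14, an ADP-ribosyltransferase (0.15). The nearest to Gsdmd was Tnfrsf21, a death receptor (0.09), to Casp1 the growth factor gene Pdgfb (0.05), to Ripk3 Smim14 (0.06), to Mlkl Kctd21 (0.05) and to Zbp1 BC147527 (0.08). Pycard was nearest to Ctnnbip1 (0.04), Ripk1 to Micu2 (0.05) and Casp8 to Pdha1, a subunit of pyruvate dehydrogenase (0.03). With 4 libraries many genes share such a profile, and these distances are descriptive.

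A further 58 genes of the pathways were examined by role, of which 52 could be tested. Of these, 14 were higher at an unadjusted p under 0.05, beside 11.6% of all genes tested, and 0 were lower, beside 6.55%, and the median log2 fold change was 0.80. None passed in edgeR at an adjusted p under 0.05, and DESeq2 called 14 of them higher at an adjusted p under 0.05, which 9.21% of all genes were. The 6 not tested were Nlrp6, Nlrp12, Gsdma, Gsdma2, Gsdmc and Gsdmc2, the last pair of which had 0 counts in every library. With at least 10 counts required in every library, 12 of 48 genes of the list were higher at an unadjusted p under 0.05. In that fit, 2265 of all 12242 genes tested met this threshold in either direction. The list median was 0.96 in TAK-931-1 but 0.29 in TAK-931-2, as log2 CPM above the vehicle mean.

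In the fit of all 4 libraries, ligands and receptors of death signaling had the highest median of the role groups, 3.12 over 8 genes. Of these, 5 were higher at an unadjusted p under 0.05 (11.6% of all genes). Fasl and Fas, both among the 5, had under 10 counts in each vehicle library. They thus passed the filter on low counts only through the TAK-931 libraries. Fasl, the ligand used by cytotoxic lymphocytes, had 0 and 8 counts in the vehicle pair against 362 and 60 in the TAK-931 pair, with a log2 fold change of 5.52 (SE 1.73). Its receptor gene Fas had a log2 fold change of 4.08, Tnfsf10 (TRAIL) 3.76, Tnf 3.61 and the double-stranded RNA receptor gene Tlr3 2.64. Each of these 5 values was higher with TAK-931-1 than without it. Without that library they were 3.83 for Fasl, 2.6 for Fas, 2.16 for Tnfsf10, 1.98 for Tnf and 1.35 for Tlr3, and in edgeR Fas (adjusted p = 0.0594), Tnf (0.0805) and Tlr3 (0.131) were then not called. Without TAK-931-2 they were between 3.28 and 6.26. The median of the role was 1.67 without TAK-931-1, below the 1.83 of the cytokines released by pyroptosis in that fit. The lowest was the TRAIL receptor gene Tnfrsf10b at 10.1, 15.3, 11.1 and 12.2 CPM, with groups that overlapped (log2 fold change -0.12). The summed T cell markers were 24.5-fold and 2.33-fold, and the NK cell markers 28.3-fold and 7.35-fold, over the vehicle mean in the TAK-931 pair, and their part in the ligand values was not tested.

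Of 14 inflammasome sensors and regulators tested, 4 were higher at an unadjusted p under 0.05 (11.6% of all genes), and the median was 1.04. Gbp5, an interferon-induced guanylate-binding protein that promotes inflammasome assembly, was highest at 17.0, 2.52, 113 and 60.1 CPM (log2 fold change 3.15, SE 1.00). Its vehicle libraries differed widely from each other. Naip5 (3.01), the pyrin gene Mefv (2.53) and Gm12250 (2.12), listed in RefSeq as a synonym of Irgb10, were the others. Without TAK-931-1 the 4 stood at 2.62 for Gbp5, 2.16 for Naip5, 1.67 for Mefv and 1.73 for Gm12250, and in edgeR Gbp5 (adjusted p = 0.484) and Mefv (adjusted p = 0.0521) were not called. The median of the role was then 0.61. The lowest was Naip1, at 2.49, 3.24, 1.58 and 1.11 CPM (log2 fold change -1.09), and reads may be split among the close Naip paralogs.

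The cytokines released by pyroptosis were higher without overlap in 3 of 3 cases, which 29.9% of all genes were, with a median of 2.00. Il1a was highest, at 0.830, 1.20, 8.31 and 4.26 CPM (log2 fold change 2.62), Il1b was at 2.00, and Il18 was lowest at 3.67, 4.07, 13.1 and 5.71 CPM (1.28). Without TAK-931-1 the log2 fold change was 2.06 for Il1a and 1.83 for Il1b, but 0.56 for Il18. Of the gasdermin and membrane rupture genes, 2 could be tested and 0 met the unadjusted rule (11.6% of all genes higher, 6.55% lower), a number too small to set against that share. Ninj1, which drives the final membrane rupture, was at 40.9 and 44.2 CPM in vehicle, 193 CPM in TAK-931-1 but 42.6 CPM in TAK-931-2. It was thus high in 1 TAK-931 library and within the vehicle range in the other. Dfna5, which encodes gasdermin E, was at 1.54, 2.16, 1.53 and 1.22 CPM (log2 fold change -0.42).

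Apoptotic caspases gave 0 of 6 at an unadjusted p under 0.05 (11.6% of all genes higher, 6.55% lower). Their median of 0.52 turned to -0.18 without TAK-931-1, so its direction rests on that library. Casp2 was lowest, at 59.4, 57.9, 45.5 and 45.9 CPM (-0.36). Both TAK-931 libraries were below both vehicle libraries for Casp2.

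Adaptors and ubiquitin checkpoints of the RIPK1 complex had a median of 0.37 over 19 genes, of which 3 were higher at an unadjusted p under 0.05, a share near the 11.6% of all genes. That median was 0.07 without TAK-931-1 and 0.29 without TAK-931-2. Cflar, which encodes the caspase-8 partner cFLIP, was at 102 and 108 CPM in vehicle and at 213 and 218 CPM in TAK-931. Its folds of 2.03 and 2.07 were nearly equal in the TAK-931 libraries (log2 fold change 1.04, SE 0.21, adjusted p = 0.275; DESeq2 adjusted p = 0.00700). Tnfaip3 (A20), a ubiquitin editor of the same complex, was at 34.2, 36.4, 65.8 and 76.8 CPM (1.02). Birc3 (cIAP2), a ubiquitin ligase for RIPK1, was at 63.8, 63.7, 91.1 and 160 CPM (0.98). Without TAK-931-2 the log2 fold change of Birc3 was 0.49, against 1.33 without TAK-931-1. Fadd, the adaptor between death receptors and caspase-8, was lowest at 24.8, 29.4, 18.4 and 18.7 CPM (-0.55, SE 0.27), with no overlap between groups.

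**Figure D4:**
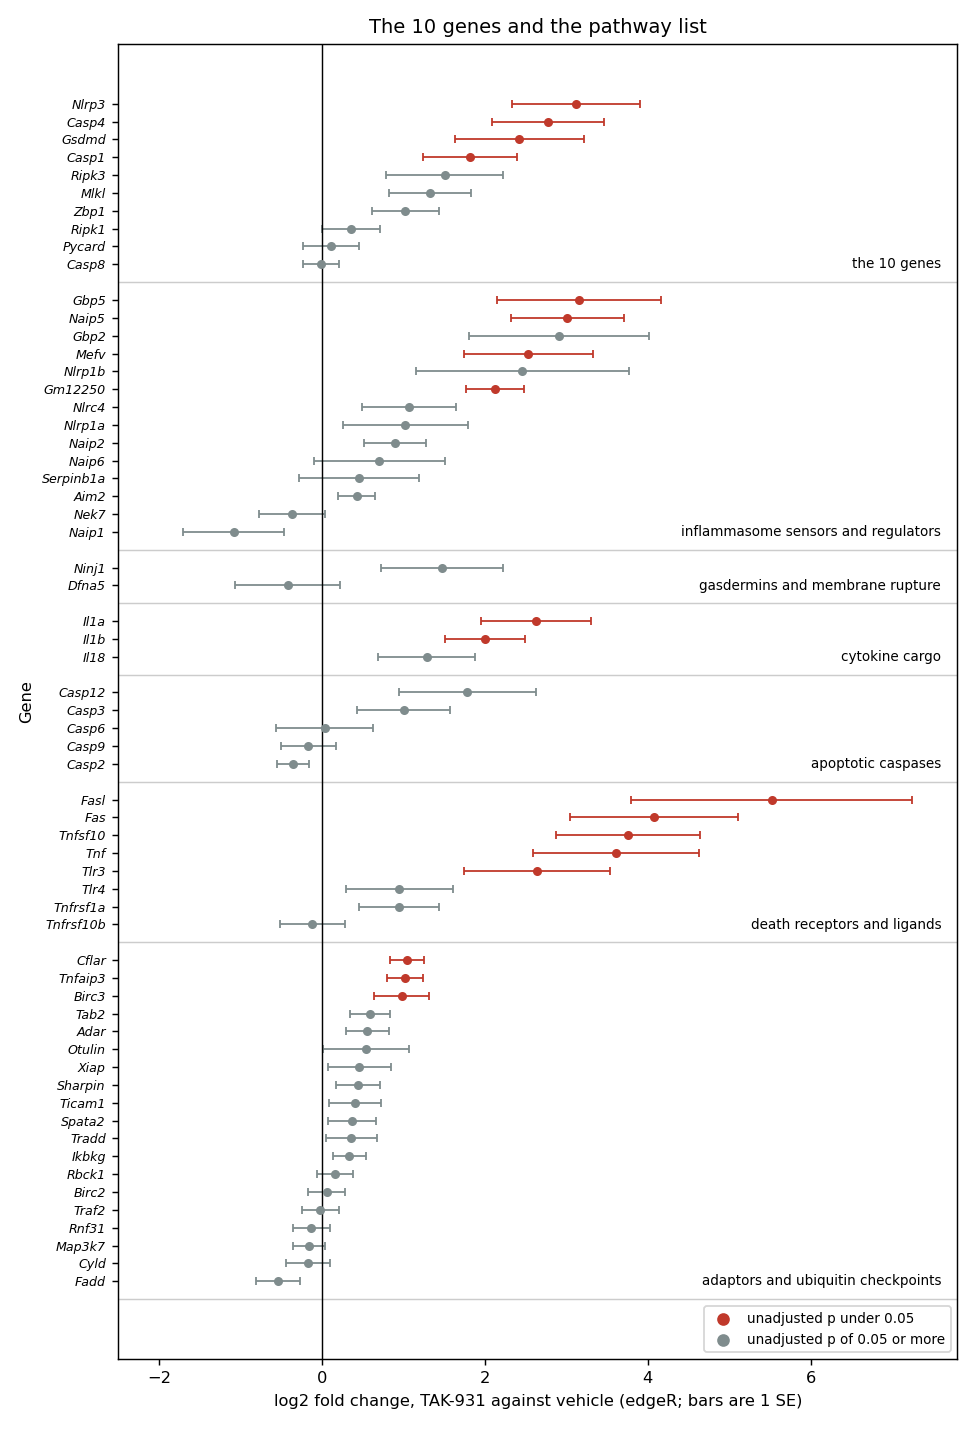
Fitted log2 fold change of TAK-931 against vehicle (edgeR, bars of 1 SE) for the 10 genes and all but 1 of the 52 tested genes of the pathway list, grouped by role; red marks an unadjusted p under 0.05. Red points number 4 among the 10 genes and 14 among the plotted genes of the pathway list, all to the right of 0, and 5 of the 8 ligands and receptors are red.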

How the data were processed

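RNA from whole allograft tumors was sequenced in 4 libraries. The authors deposited 1 table per library of raw counts per gene, with no normalization. Per the labels, STAR 2.6.1c, featureCounts and the mm10 build were named in the submitters' processing notes. Strand use and the handling of read pairs were not given in the sources used here. The deposited tables also hold exon positions and a length column of another kind, the summed exonic bases per gene, which was used for CPM per kb. The odd share of counts from 1 to 20 was 17.9% to 23.9% per library, so both mates of a pair seem to be counted, and intervals and floors, which cover counting error only, are too narrow. A total of 27 symbols altered to dates were kept as deposited, and 4 rows with repeated symbols were kept apart by chromosome.

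Libraries were scaled by TMM and filtered with filterByExpr (minimum count of 10), and TAK-931 was compared with vehicle by edgeR 4.0.16 (R 4.3.3) with a robust quasi-likelihood fit, two-sided, with Benjamini-Hochberg adjustment over all 13669 genes. Every adjusted p is from edgeR unless another tool is named. An exact test of 2 against 2 libraries cannot go below a p of 0.333. Log2 CPM used a prior count of 2. Alternatives were other scalings, other filters, a replicate block, leaving out each library, DESeq2 1.42.0, limma-voom (limma 3.58.1), halved counts, a fit without robust estimation and a prior count of 0.5. Values of each TAK-931 library alone and ratios between genes were added after the data were seen.

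The 10 genes, the pathway list, the marker lists and the tests were chosen with earlier results of these data known. Named besides the 10 genes were, for each role, the tested gene with the highest and the lowest log2 fold change, and for each of the 10 genes its nearest other gene, while others named within a role are those at an unadjusted p under 0.05. Gbp2 and Adar were named after their values were seen. One gene that this rule names is not reported here. The script was tested on simulated data. Marker lists held 12 macrophage, 10 T cell, 5 NK cell, 6 neutrophil, 6 dendritic cell, 8 plasma cell and J558, and 12 interferon-stimulated genes. Of the 6 neutrophil markers, 5 had a row, and these summed to 6.28, 6.83, 128 and 15.2 CPM, vehicle libraries first. Among the 3 tested, the median difference in log2 CPM from the vehicle mean was 2.92 in TAK-931-1 but -2.28 in TAK-931-2. Dendritic cell markers summed to 27.3, 22.1, 298 and 62.9 CPM in the same order. The NK cell marker Klra8 and the interferon-stimulated gene Oas1a were at 0 in every library.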

Additional observations from a re-analysis of the deposited data

How the results depend on the processing

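Among all genes, the number with an adjusted p under 0.05 was 0 in edgeR and also 0 with either vehicle library left out, 144 with a replicate block and 1411 in DESeq2, and it ranged from 0 to 8424 over the fits that left out 1 library (3996 without TAK-931-1, 8424 without TAK-931-2). In those last fits the spread comes from the vehicle pair, and the lone TAK-931 library is assumed to vary like it. The replicate numbers are not stated to pair the samples. Deviations of same-numbered libraries correlated at 0.004 across genes. With only the difference between 2 libraries in each group, this value cannot show whether they pair. With the block, 0 of the 10 genes passed at an adjusted p under 0.05. The count of the 10 genes higher at an unadjusted p under 0.05 was 4, against 7 in DESeq2 (with Ripk3, Mlkl and Zbp1) and 2 in limma-voom (Nlrp3 and Casp4), and from 2 to 8 with 1 library left out (2 without Vehicle-2, 8 without TAK-931-2). In edgeR, Mlkl also met this rule with library size only, with at least 10 counts in every library, with no filter and without TAK-931-1, and Zbp1 with no filter and with the block. The count for the pathway list was 14, and from 8 to 32 with 1 library left out (9 without Vehicle-1, 8 without Vehicle-2, 32 without TAK-931-2). The median log2 fold change of the 10 genes was positive in every setting, from 0.58 without TAK-931-1 to 1.95 without TAK-931-2. Signs turned for 3 genes near 0. Casp8 was at 0.0285 with median-of-ratios size factors and in DESeq2, 0.0559 with at least 10 counts required in every library, 0.0141 with halved counts and 0.13 without Vehicle-1, and from -0.17 to 0.13 with 1 library left out. Pycard was at -0.05 without Vehicle-1 and ranged from -0.32 without TAK-931-1 to 0.41 without TAK-931-2, and Ripk1 from -0.13 to 0.69 without the same libraries. The medians relative to macrophage and T cell markers stayed below 0 in every setting run. Among the 10 genes Nlrp3 had the fewest counts, 14 in Vehicle-2, and with halved counts its log2 fold change was 3.15. Fasl (0 and 8 vehicle counts) and Fas (6 and 8) had fewer.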

Other observations

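Ratios between partner genes within a library do not depend on the scaling between libraries, and 12 such ratios of CPM per kb were computed after the values were seen, with no test. Cflar per Casp8, the balance of cFLIP message to that of its partner, was 0.260 and 0.331 in vehicle and 0.588 and 0.627 in TAK-931, close within each group. Casp4 per Casp1 was 0.377 and 0.241 in vehicle and 0.599 and 0.631 in TAK-931, again with both TAK-931 libraries near each other although the level of each gene differed widely between them. Fadd per Casp8 was 0.183 and 0.262 in vehicle and 0.148 and 0.156 in TAK-931.

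Other ratios followed the split between the TAK-931 libraries. Casp8 per Ripk3, the brake against the kinase it holds in check, was 8.31 and 8.30 in vehicle, 1.86 in TAK-931-1 and 6.93 in TAK-931-2. Ripk1 per Ripk3 was 1.17 and 1.45 in vehicle, 0.471 in TAK-931-1 and 1.02 in TAK-931-2. Gsdmd per Pycard was 0.383 and 0.226 in vehicle, 1.91 in TAK-931-1 and 0.721 in TAK-931-2. Pycard per Casp1 was 2.41 and 3.37 in vehicle against 0.747 and 1.25 in TAK-931, and Pycard per Nlrp3 was 47.3 and 109 against 7.32 and 11.8, the second resting on few Nlrp3 counts in vehicle. The 4 ratios whose groups overlapped were Mlkl per Ripk3, Zbp1 per Ripk3, Gsdmd per Casp1 and Adar per Zbp1. Cells of different kinds contribute to each ratio, and their part was not tested.

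With a replicate block, 2 genes of the pathway list, Gbp2 (adjusted p = 0.0377) and Gbp5 (adjusted p = 0.0385), passed in edgeR's test, in a fit that called 1.05% of all genes. The replicate numbers are not stated to pair the samples. Without the block neither passed in edgeR (adjusted p = 0.276 for Gbp2 and 0.275 for Gbp5). DESeq2, also without a block, gave adjusted p-values of 0.0142 for Gbp2 and 0.00364 for Gbp5, and it called 9.21% of all genes higher.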
